A study of Mus musculus with 6 samples.

Results

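The 42 genes described here are those of 21705 rows in the expression table whose symbol starts with Nduf, the prefix given to nuclear genes of NADH:ubiquinone oxidoreductase, or complex I, and to its dedicated assembly factors. Of these, 38 carry a structural prefix (Ndufa, Ndufb, Ndufc, Ndufs or Ndufv) and 4 are assembly factors (Ndufaf1 to Ndufaf4). All 42 had a mean value high enough to be tested. RNA came from whole hearts of females of the FVB strain, wild type (WT) in both arms and 12 to 16 weeks old. The treated arm was given trametinib, a drug that blocks the MEK kinases of the ERK signalling pathway, at 3 mg/kg once a day for 14 days. The control arm received vehicle for 14 days. There were 3 hearts per arm, labelled as separate females, so the p-values measure the spread between these animals. The table heading calls the control arm a PBS control, whereas the sample labels call it vehicle.

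Complex I takes electrons from NADH, passes them along a chain of iron-sulfur clusters to ubiquinone, and pumps protons across the inner mitochondrial membrane. Its peripheral arm holds the N module, which binds NADH, and the Q module, which reduces ubiquinone. Its membrane arm does the pumping and is divided here into a proximal and a distal part. The catalytic core is shared with bacteria and is encoded partly in the nucleus and partly in mitochondrial DNA, while the many accessory subunits around it are nuclear. Assembly factors bring the modules together and leave the finished enzyme. Heart muscle is rich in mitochondria and in complex I. The subunits encoded in mitochondrial DNA, and Ndufb1, were not analysed here.

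Start regions of the structural and assembly genes were searched for the letters of 4 motifs that are textbook elements of nuclear respiratory genes. RefSeq start regions on GRCm38.p6, from 250 bases before to 50 after the start, were at hand for 33 of the 38 structural genes. They were also at hand for 7 of the 8 assembly factors by current name (Ndufaf1 to Ndufaf8). The core subunit, the accessory subunit and the assembly factor with the smallest p are printed first, each 5′ to 3′ in the direction of the gene, with motif matches in capitals. They are Ndufs8 at chr19:3912725-3913024 on the minus strand, Ndufb7 at chr8:83566508-83566807 on the plus strand, and Ndufaf3 at chr9:108567387-108567686 on the minus strand.
Ndufs8: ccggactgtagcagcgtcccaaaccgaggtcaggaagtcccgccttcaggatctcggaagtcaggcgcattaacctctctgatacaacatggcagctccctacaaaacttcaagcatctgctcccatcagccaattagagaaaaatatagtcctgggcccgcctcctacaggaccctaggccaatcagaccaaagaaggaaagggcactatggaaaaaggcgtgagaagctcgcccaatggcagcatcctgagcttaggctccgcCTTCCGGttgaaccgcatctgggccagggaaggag
Ndufb7: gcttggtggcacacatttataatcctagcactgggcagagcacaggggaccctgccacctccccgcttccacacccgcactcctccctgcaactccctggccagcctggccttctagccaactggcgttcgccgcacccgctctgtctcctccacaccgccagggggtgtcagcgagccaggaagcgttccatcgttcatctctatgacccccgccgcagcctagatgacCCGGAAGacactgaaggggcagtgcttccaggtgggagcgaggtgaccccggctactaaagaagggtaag
Ndufaf3: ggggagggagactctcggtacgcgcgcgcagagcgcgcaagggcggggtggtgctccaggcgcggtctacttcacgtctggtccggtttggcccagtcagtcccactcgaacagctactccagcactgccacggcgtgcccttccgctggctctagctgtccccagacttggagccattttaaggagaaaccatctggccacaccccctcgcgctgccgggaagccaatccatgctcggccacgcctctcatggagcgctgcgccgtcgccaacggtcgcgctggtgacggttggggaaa
The capitals mark the ETS letters CCGGAAG, the core recognised by NRF2 (GABP), read on the opposite strand in Ndufs8 with its first base at position 16 and on the gene's strand in Ndufb7 at position -20. The Ndufaf3 region held none of the 4 motifs.

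The letters AAGATGGCG, a form of the YY1 motif, occurred in 5 of the 33 structural start regions (15.2%), against 443 of 27025 genes with an entry and 3.34% of the 10711 tested genes with an entry. All 5 matches lay on the gene's strand, 23 to 36 bases after the start, and in all 5 the ATG within the letters is the annotated start codon in GENCODE M21. They are printed as windows of up to 25 bases with the match in capitals, at chr6:126849099-126849123 (minus strand) for Ndufa9, chr3:51408917-51408941 (minus strand) for Ndufc1, chr13:114388045-114388067 (minus strand) for Ndufs4, chr13:73328433-73328457 (minus strand) for Ndufs6 and chr10:80249465-80249489 (plus strand) for Ndufs7.
Ndufa9: tgtgggagAAGATGGCGgccgccgt
Ndufc1: tgcggaacAAGATGGCGccgtccgt
Ndufs4: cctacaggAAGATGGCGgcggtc
Ndufs6: tcaccggcAAGATGGCGgcggtgct
Ndufs7: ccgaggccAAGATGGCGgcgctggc
NRF1 letters, CGCNTGCGC, occurred in 8 structural start regions (24.2%), against 7.03% of all genes with an entry and 14.6% of tested genes. Of these 8 genes, Ndufs6 had the lowest fold change and Ndufa8 the highest, and their matches are shown at chr13:73328481-73328505 (minus strand) and, for the 2 matches of Ndufa8, at chr2:36049351-36049375 (minus strand) and chr2:36049331-36049355 (minus strand).
Ndufs6: ctgctgtgCGCCTGCGCcggcactt
Ndufa8, first match: gagcagtgCGCTTGCGCgtcgctgg
Ndufa8, second match: gctggagaCGCATGCGCagatggta
The ETS letters were found in 4 structural start regions (12.1%), against 9.93% of all genes with an entry and 18.9% of tested genes. ERR letters, TCAAGGTCA, were found in 0 of them, against 0.466% and 0.317%. Both strands were searched. Ndufs6 was the structural gene with matches to both NRF1 and YY1, and these did not overlap. A further 17 of the 33 start regions held none of the 4 in these windows. Of the 7 assembly factors with an entry, NRF1 letters occurred in 2 (28.6%), which were Ndufaf4 and Ndufaf5. ETS letters occurred in 2 (28.6%), YY1 letters in 1 (14.3%) and ERR letters in 0. The matches were thus not particular to the structural genes. A match is a run of letters and not a measured binding site.

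Values are counts per gene that the authors normalized, and library totals ran from 21656431 to 22330993. Where single hearts are given, replicates 1, 2 and 3 of each arm follow in that order, in normalized counts. Estimated depth went with the arm, at 14304826 to 16046500 reads in vehicle and 23033856 to 24691501 in trametinib hearts. After thinning to the shallowest library, 38 structural genes and 3 assembly factors were still called lower. Library correlations were 0.976 to 0.988 within an arm, apart from 0.969 between trametinib replicates 1 and 3, and trametinib replicate 3 correlated least with the vehicle hearts (0.927 to 0.945). Without that heart the structural median log2 fold change was -0.75 and that of the assembly factors -0.38. The heart markers Myh6, Tnnt2, Tnni3, Actc1 and Myl2 were all abundant, with vehicle means from 118512 for Tnni3 to 632196 for Myh6.

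Transcripts of the structural genes fell together in the trametinib hearts. All 38 were lower at an adjusted p below 0.05 (limma on log2(value + 1), Benjamini-Hochberg over 13581 genes, two-sided), where 22.8% of all tested genes were lower and 21.6% higher. Adjusted p ran from 0.000248 to 0.00788. The falls ranged from 20.6% for Ndufs1 to 60.6% for Ndufb2, with a median log2 fold change of -0.77 against -0.01 over all genes tested. For each of the 38, all 3 trametinib values lay below all 3 vehicle values, as they did for 29.5% of tested genes. Among the assembly factors 3 of 4 were lower, with a median of -0.40. With any 1 heart left out, all 38 stayed past the threshold, with a highest adjusted p of 0.0295. In whole tissue, fewer cardiomyocytes and less complex I mRNA per cardiomyocyte cannot be told apart.

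**Figure D1:**
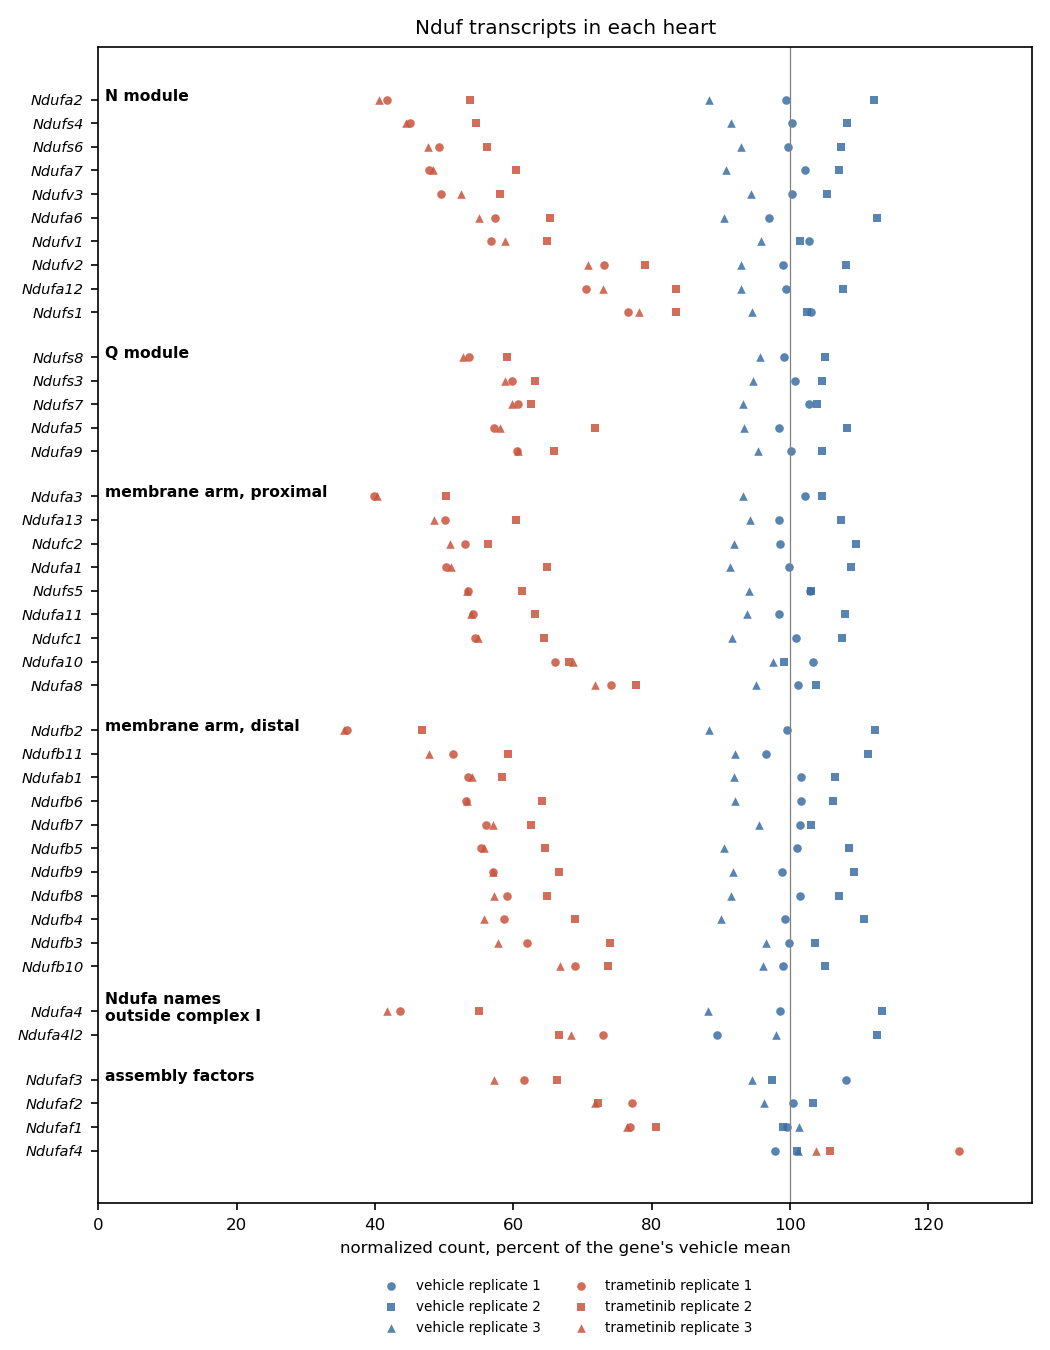
Normalized count of 41 Nduf genes in each of the 6 hearts, as a percent of that gene's vehicle mean (x axis), with genes in rows grouped by module; blue marks are vehicle and red marks trametinib hearts, with 1 mark shape per replicate number. The red marks of the 37 structural genes drawn lie to the left of their blue marks, vehicle replicate 2 and trametinib replicate 2 are usually the rightmost of their arm, and Ndufaf4 alone has its red marks to the right.

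Fold change in these libraries followed transcript length, and complex I transcripts are short. Across 13512 tested genes with a length, the Spearman correlation of fold change with mean transcript length was 0.47 (Pearson 0.34), a description over genes that share the same 6 libraries. The median mean transcript length was 832 nt for structural genes and 2268 nt for all tested genes. In the shortest 20% of tested genes, up to 1311 nt, 56.3% were lower and the median log2 fold change was -0.42, and 35 of the 38 structural genes lay there. Among the 38 themselves, fold change and principal transcript length had a Pearson r of 0.50 and a Spearman rho of 0.51, given as a description, but with mean transcript length these were 0.12 and 0.30, near the 0.08 and 0.25 for fold change and vehicle level. All values were therefore also computed after subtracting, in each library, a smooth curve of expression on length and then on GC content. After this correction 12.5% of tested genes were lower and 15.4% higher, 21 structural genes were lower, 1 (Ndufb10) was higher, 16 were not past the threshold, and the structural median was -0.23. With the length of the shortest principal transcript in place of the mean, a choice made after seeing the data, 12.7% of tested genes were lower, 22 structural genes were lower, and the median was -0.27. Both corrections shared 19 lower structural genes. The correction cannot tell a length bias of the libraries apart from a change that truly follows length.

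**Figure D2:**
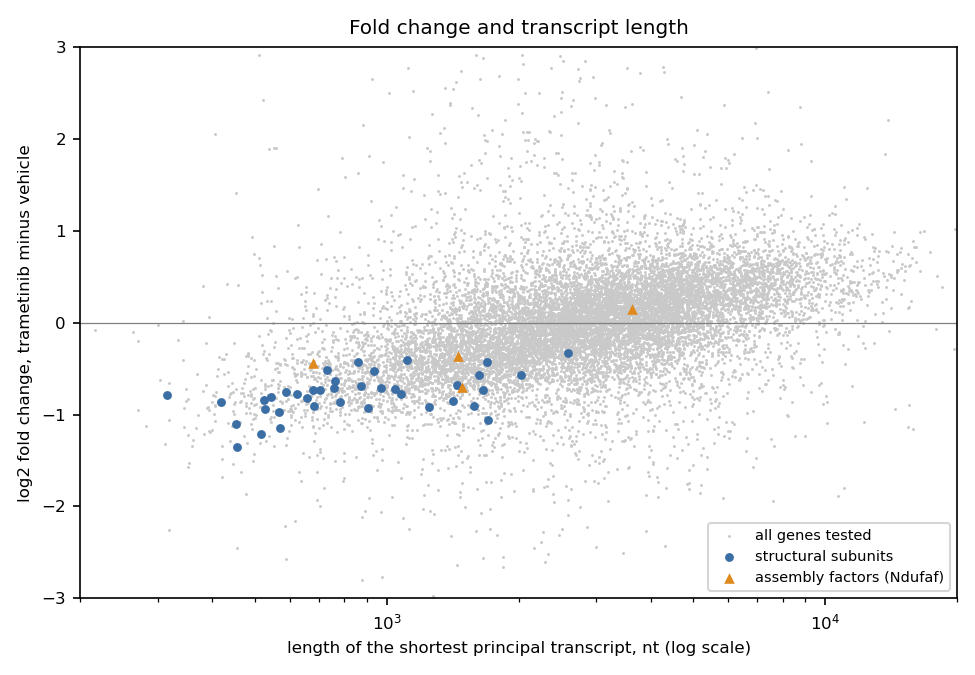
Log2 fold change, trametinib minus vehicle (y axis), against the length of the shortest principal transcript in nt on a log scale (x axis) for 13411 tested genes in grey, with structural Nduf genes in blue and assembly factors in orange; 101 genes beyond the axes are not drawn. Grey points rise from left to right, and the structural genes sit at the short end, all below 0.

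Core subunits carry the electron path, and all 7 nuclear ones were lower, with log2 fold changes of -0.86 to -0.33 and a median of -0.71. Among tested genes 22.8% were lower, and 29.5% had all 3 trametinib values below all 3 vehicle values. In the N module, Ndufv1 holds the flavin that accepts electrons from NADH. It stood at 21564, 21288 and 20100 in vehicle and 11899, 13611 and 12351 in trametinib hearts. The groups did not overlap, and the log2 fold change was -0.74 ± 0.066 (SE, adjusted p = 0.000306). Its partner Ndufv2, which carries an iron-sulfur cluster, stood at 17185, 18757 and 16122 in vehicle and 12683, 13718 and 12291 in trametinib hearts. Every trametinib heart was below every vehicle heart, although the smallest gap between the arms was only 1.18-fold, and the log2 fold change was -0.43 ± 0.073 (SE, adjusted p = 0.00294). Ndufs1, the largest iron-sulfur subunit, stood at 25913, 25790 and 23786 in vehicle and 19288, 21008 and 19665 in trametinib hearts. Here the trametinib hearts were lower by 20.6% on average, the smallest fall of any structural gene, and the log2 fold change was -0.33 ± 0.061 (SE, adjusted p = 0.00396).

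The other core genes belong to the Q module, where electrons reach ubiquinone. Ndufs3, a core subunit without an iron-sulfur cluster, stood at 7474, 7764 and 7022 in vehicle and 4435, 4685 and 4358 in trametinib hearts. Its lowest vehicle value was 1.5 times its highest trametinib value, and the log2 fold change was -0.72 ± 0.059 (SE, adjusted p = 0.000269). Ndufs7 carries the last iron-sulfur cluster before ubiquinone, and stood at 10826, 10946 and 9817 in vehicle and 6394, 6581 and 6295 in trametinib hearts. The 3 trametinib hearts lay within a narrow band well under the vehicle hearts, with a log2 fold change of -0.71 ± 0.059 (SE, adjusted p = 0.000272). Ndufs8, an iron-sulfur subunit that sits beside Ndufs7, had the smallest p of the 42 genes. It stood at 7057, 7478 and 6809 in vehicle and 3815, 4207 and 3753 in trametinib hearts, 2 groups far apart, with a log2 fold change of -0.86 ± 0.065 (SE, adjusted p = 0.000248). After the length and GC correction Ndufs3, Ndufs8 and Ndufv1 remained lower, while Ndufs1 (-0.01, adjusted p = 0.91), Ndufv2 (-0.07, adjusted p = 0.372) and Ndufs7 (-0.14, adjusted p = 0.0797) were not past the threshold. With principal transcript lengths Ndufs1 and Ndufv2 were lower again (-0.35 and -0.26) and Ndufs7 was not (-0.08).

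Against 22.8% of all tested genes, 10 of 10 N module genes, core genes included, were lower, with a median of -0.83. The module holds the smallest fall of the 38 and, in its accessory subunits, some of the larger ones. Ndufa2, a small subunit with a thioredoxin-like fold, stood at 5439, 6133 and 4828 in vehicle and 2278, 2941 and 2220 in trametinib hearts. Trametinib values were below those of any vehicle heart, with a log2 fold change of -1.15 ± 0.128 (SE, adjusted p = 0.000554). Ndufs4, whose loss in mice gives a model of Leigh syndrome, stood at 7430, 8026 and 6777 in vehicle and 3340, 4049 and 3296 in trametinib hearts. It fell by 51.9%, and the log2 fold change was -1.06 ± 0.098 (SE, adjusted p = 0.000329). After correction its fall was second to that of Ndufb2 by mean length, at -0.78 (adjusted p = 0.000619), and the largest of the 42 genes by principal length, at -0.89. Ndufa12, which takes the place of the assembly factor Ndufaf2 late in assembly, stood at 3879, 4203 and 3630 in vehicle and 2751, 3258 and 2851 in trametinib hearts. The gap was the narrowest of the 38, 1.11-fold between the nearest hearts, and the log2 fold change was -0.40 ± 0.084 (SE, adjusted p = 0.00679).

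The remaining N module genes included Ndufa6, an LYR-motif protein that binds the mitochondrial acyl carrier protein. It stood at 10436, 12105 and 9731 in vehicle and 6163, 7031 and 5919 in trametinib hearts. Again the arms did not overlap, with a log2 fold change of -0.75 ± 0.098 (SE, adjusted p = 0.000946). Ndufa7, an accessory subunit of the peripheral arm, stood at 5352, 5606 and 4756 in vehicle and 2506, 3165 and 2538 in trametinib hearts. Its trametinib hearts were lower by 47.8% on average, with a log2 fold change of -0.94 ± 0.106 (SE, adjusted p = 0.000559). Ndufs6, which binds zinc, and Ndufv3 fell by 49.0% and 46.6% (log2 fold changes -0.97 and -0.91), and both remained lower after correction, at -0.29 and -0.42. In all, 5 of the 10 N module genes were lower after correction, against 12.5% of tested genes, with Ndufa2 at -0.43. Ndufa12 (0.10), Ndufa6 (0.10), Ndufa7 (-0.15), Ndufs1 and Ndufv2 were not past the threshold.

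In the Q module all 6 genes were lower, against 22.8% of tested genes, with a median of -0.70. Ndufa5, an accessory subunit of that module, stood at 10864, 11961 and 10308 in vehicle and 6324, 7930 and 6408 in trametinib hearts. Trametinib replicate 2 was the highest of its arm and still below every vehicle heart, and the log2 fold change was -0.69 ± 0.1 (SE, adjusted p = 0.0015). Ndufa9, an NADPH-binding member of the short-chain dehydrogenase family, fell by 37.6% (log2 fold change -0.68). After correction Ndufa9 remained lower at -0.48 (adjusted p = 0.0013), while Ndufa5 stood at 0.01 (adjusted p = 0.907).

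The proximal membrane arm joins the peripheral arm to the pumps. All 9 of its genes were lower, against 22.8% of tested genes, with a median of -0.84. Ndufa3, a small single-pass membrane subunit, stood at 7668, 7846 and 6989 in vehicle and 2994, 3772 and 3020 in trametinib hearts. It fell by 56.5%, the second largest fall of the 42 genes, with a log2 fold change of -1.21 ± 0.099 (SE, adjusted p = 0.000269). Ndufa8, a subunit of the intermembrane-space face, stood at 8234, 8447 and 7749 in vehicle and 6035, 6328 and 5844 in trametinib hearts. This was among the 5 smallest falls of the 38, with a log2 fold change of -0.42 ± 0.057 (SE, adjusted p = 0.00108). Ndufa1, an X-linked subunit, stood at 6394, 6961 and 5845 in vehicle and 3220, 4152 and 3266 in trametinib hearts. The highest trametinib heart, replicate 2, was still below the lowest vehicle heart, and the log2 fold change was -0.86 ± 0.112 (SE, adjusted p = 0.000946).

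Of the other proximal genes, Ndufs5, a subunit on the intermembrane-space side, stood at 2965, 2971 and 2712 in vehicle and 1542, 1765 and 1537 in trametinib hearts. The arms were apart, with a log2 fold change of -0.84 ± 0.075 (SE, adjusted p = 0.000306). Ndufa11, a membrane subunit of the Tim17 family, stood at 6795, 7455 and 6475 in vehicle and 3743, 4364 and 3721 in trametinib hearts. It had a log2 fold change of -0.81 ± 0.083 (SE, adjusted p = 0.000439) and non-overlapping arms. Ndufc1, a small membrane subunit, stood at 3930, 4191 and 3567 in vehicle and 2120, 2510 and 2137 in trametinib hearts. The lowest vehicle heart was at 1.42 times the highest trametinib heart, and the log2 fold change was -0.79 ± 0.089 (SE, adjusted p = 0.000579). Ndufa13 (GRIM-19, also described as a regulator of cell death), Ndufc2 and Ndufa10 fell by 47.0%, 46.6% and 32.5%. After correction 5 of the 9 were lower (Ndufa3 -0.35, Ndufa13 -0.58, Ndufc2 -0.20, Ndufc1 -0.27 and Ndufa10 -0.25), against 12.5% of tested genes. Ndufa1 (-0.04), Ndufs5 (-0.09), Ndufa11 (-0.09) and Ndufa8 (0.09) were not past the threshold. Ndufc1 lost its call with principal transcript lengths, at 0.02 (adjusted p = 0.839).

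The distal membrane arm is built around the last proton pumps and holds most Ndufb subunits. All 11 of its genes were lower, against 22.8% of tested genes, with a median of -0.77. Ndufb2, a small accessory subunit, showed the largest fall of the 42 genes. It stood at 6089, 6866 and 5399 in vehicle and 2199, 2860 and 2169 in trametinib hearts. Each trametinib heart was well below each vehicle heart, and the log2 fold change was -1.35 ± 0.128 (SE, adjusted p = 0.000365). Its corrected value depends on the length used: the mean length of 2413 nt gave -1.38 and the principal transcript of 455 nt gave -0.61 (adjusted p = 0.0018), both past the threshold. Ndufb10, a subunit of the intermembrane-space side, stood at 12471, 13237 and 12104 in vehicle and 8683, 9290 and 8414 in trametinib hearts. Its fall of 30.2% was among the 5 smallest of the 38 structural genes, with a log2 fold change of -0.52 ± 0.061 (SE, adjusted p = 0.000654). It is the 1 structural gene whose corrected value was higher, at 0.19 (adjusted p = 0.0366), which was not past the threshold with principal transcript lengths (0.08, adjusted p = 0.339).

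Several distal genes are abundant. Ndufb8, a membrane subunit, stood at 24665, 26039 and 22258 in vehicle and 14362, 15773 and 13903 in trametinib hearts. The log2 fold change was -0.73 ± 0.078 (SE, adjusted p = 0.00048), with no overlap between arms. Ndufb9, an LYR-motif protein like Ndufa6, stood at 17651, 19505 and 16385 in vehicle and 10195, 11880 and 10188 in trametinib hearts. Trametinib hearts were lower by 39.7%, with a log2 fold change of -0.73 ± 0.088 (SE, adjusted p = 0.000726). Ndufb7, a subunit of the intermembrane-space side and the accessory gene with the smallest p, stood at 7709, 7832 and 7258 in vehicle and 4256, 4755 and 4332 in trametinib hearts. Its arms were tight and separate, with a log2 fold change of -0.77 ± 0.062 (SE, adjusted p = 0.000269). Ndufb6, a membrane subunit, stood at 4872, 5093 and 4416 in vehicle and 2547, 3074 and 2554 in trametinib hearts. Here too every trametinib heart was lower, with a log2 fold change of -0.82 ± 0.092 (SE, adjusted p = 0.000555). Ndufb3, another membrane subunit, stood at 4907, 5094 and 4741 in vehicle and 3048, 3634 and 2838 in trametinib hearts. Trametinib replicate 2 stood above the other hearts of its arm without reaching a vehicle heart, and the log2 fold change was -0.64 ± 0.093 (SE, adjusted p = 0.00145).

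Ndufab1, the mitochondrial acyl carrier protein, which also serves in mitochondrial fatty acid synthesis, fell by 44.7% and remained lower after correction at -0.75 (adjusted p = 0.000445). Ndufb11, Ndufb5 and Ndufb4 fell by 47.2%, 41.4% and 38.9% and remained lower after correction, at -0.47, -0.22 and -0.30. Ndufb8 was lower at -0.25 by mean length and not past the threshold by principal length (-0.11, adjusted p = 0.145), and for Ndufb6 it was the reverse (-0.10 and -0.24). After correction Ndufb7 (-0.02), Ndufb9 (-0.09) and Ndufb3 (-0.14) were not past the threshold under either length. Ndufb4 has protein-coding near copies (Ndufb4b and Ndufb4c), and Ndufa11, Ndufa12, Ndufab1, Ndufs5 and Ndufs6 have pseudogenes of the same name, so reads could be shared and these 6 values are less certain.

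**Figure D3:**
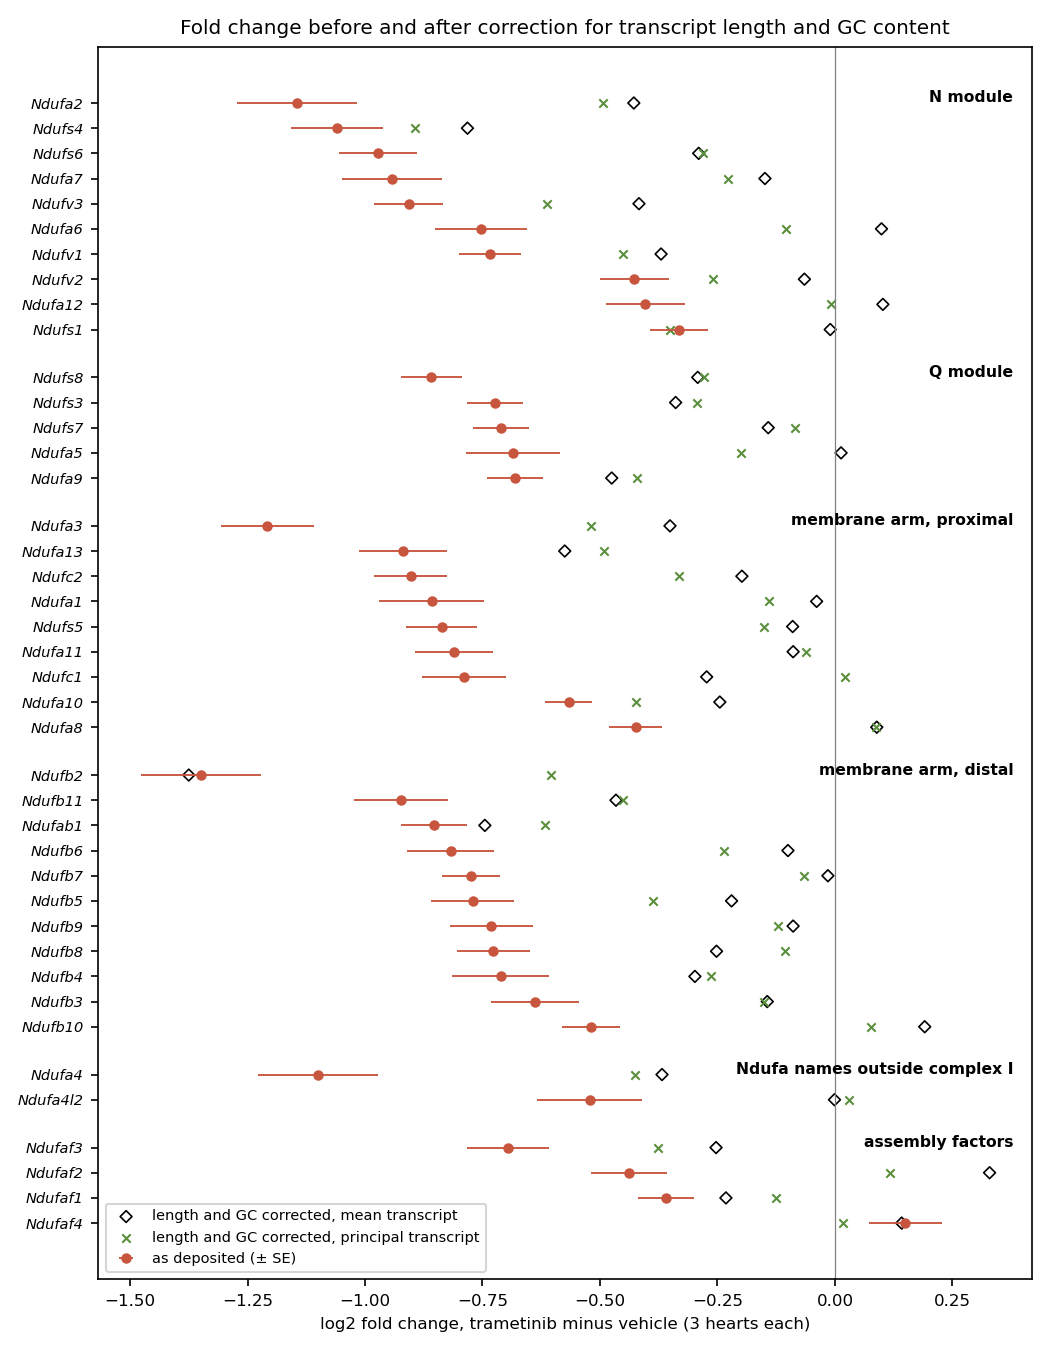
Log2 fold change of 41 Nduf genes, trametinib minus vehicle with 3 hearts each (x axis), as deposited (red points with SE bars) and after correction for length and GC content with mean (diamonds) or principal (crosses) transcript values, with genes in rows by module. Most corrected values lie nearer 0 than the red points, and Ndufb10, Ndufa8 and Ndufaf2, all left of 0 as deposited, have both corrected values above 0.

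A pair of genes with the Ndufa prefix are placed outside complex I. Ndufa4, now counted as a subunit of cytochrome c oxidase (complex IV), had the highest level per kilobase of the 42 genes and stood at 25812, 29652 and 23066 in vehicle and 11424, 14398 and 10907 in trametinib hearts. It fell by 53.2%, with a log2 fold change of -1.10 ± 0.127 (SE, adjusted p = 0.000631), and remained lower after correction (-0.37, adjusted p = 0.00473). Ndufa4l2, a hypoxia-inducible relative, had the lowest level per kilobase of the 38 and stood at 293.6, 369.8 and 321.6 in vehicle and 239.8, 218.5 and 224.3 in trametinib hearts. The arms did not overlap, and it had a log2 fold change of -0.52 ± 0.112 (SE, adjusted p = 0.00788). After correction it stood at -0.001 (adjusted p = 0.998). Leaving both out gave 36 of 36 structural genes lower and the same median of -0.77.

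Levels of the 36 complex I subunits were also compared per kilobase of principal transcript, which puts genes of unequal length on 1 scale. Ndufb8 was highest in vehicle hearts at 35765 ± 2814 normalized counts per kilobase (SD, n = 3) and Ndufb9 was next at 25351 ± 2229. Ndufa12 was lowest at 3517 ± 259, and its neighbours in the order, Ndufs4 at 4365 ± 368 and Ndufb4 at 4425 ± 458, differed from each other by less than their SD. In trametinib hearts the highest 2 genes were the same, at 21587 ± 1433 and 15276 ± 1385, and Ndufs4 was lowest at 2098 ± 249. The spread between subunits, as the SD of log2 levels per kilobase, was 0.713 to 0.721 in vehicle and 0.733 to 0.754 in trametinib hearts. Abundance thus ranged about as widely among subunits in both arms.

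Structural genes also varied together between hearts of the same arm. Vehicle replicate 2 was the highest of its arm for 34 of 38 structural genes and vehicle replicate 3 the lowest for 37. Over all 13581 genes tested, vehicle replicate 2 was highest in 25.2% and vehicle replicate 3 lowest for 3192 genes. Trametinib replicate 2 was highest of its arm for 35, against 28.8% of all genes. Per heart, the median structural log2 level relative to the vehicle mean was 0.00, 0.10 and -0.10 in vehicle replicates 1, 2 and 3 and -0.84, -0.64 and -0.85 in trametinib replicates 1, 2 and 3. After the correction these medians were -0.02, -0.001 and 0.02 against -0.28, -0.18 and -0.21, so the spread within the vehicle arm narrowed and the arms still did not overlap.

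Among the assembly factors, the direction was not shared by all 4. Ndufaf1 works with Ecsit, Acad9 and Tmem126b in the complex that builds the early membrane arm, and stood at 1023, 1017 and 1041 in vehicle and 788.9, 828.4 and 785.0 in trametinib hearts. All trametinib hearts were lower, by 22.0% on average, with a log2 fold change of -0.36 ± 0.06 (SE, adjusted p = 0.00257). Ndufaf2, the late-acting factor that Ndufa12 replaces, stood at 423.5, 436.1 and 405.7 in vehicle and 325.3, 304.9 and 303.0 in trametinib hearts. Its arms did not overlap, with a log2 fold change of -0.44 ± 0.081 (SE, adjusted p = 0.00405). Ndufaf3, which acts with Ndufaf4 on the Q module and its membrane anchor in human cells, stood at 836.4, 753.5 and 731.3 in vehicle and 475.8, 512.7 and 443.1 in trametinib hearts. It fell by 38.3%, with a log2 fold change of -0.70 ± 0.088 (SE, adjusted p = 0.000863). Ndufaf4 stood at 2225, 2296 and 2300 in vehicle and 2830, 2404 and 2358 in trametinib hearts. Its 3 trametinib values lay above its 3 vehicle values, as for 27.0% of tested genes, but trametinib replicate 1 stood apart, and the log2 fold change was 0.15 ± 0.078 (SE, adjusted p = 0.16), which did not pass the threshold.

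After the length and GC correction 0 of the 4 assembly factors was past limma's threshold, and 3 had an unadjusted p below 0.05. Their corrected values were -0.23 for Ndufaf1 (adjusted p = 0.0546), 0.33 for Ndufaf2 (adjusted p = 0.0785), -0.25 for Ndufaf3 (adjusted p = 0.057) and 0.14 for Ndufaf4 (adjusted p = 0.257). With principal transcript lengths Ndufaf3 was lower (-0.38, adjusted p = 0.0132) and the other 3 were not past the threshold. Assembly factor transcripts were scarce beside those of the subunits: the 4 lay between 520.3 and 707.7 normalized counts per kilobase in vehicle hearts, where the lowest complex I subunit was at 3517.

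Ndufaf5 to Ndufaf8 are in the table under older symbols, which the prefix rule misses, and were found by Entrez identifier. Ndufaf5 (2310003L22Rik), which hydroxylates an arginine of Ndufs7 in human cells, stood at 571.9, 616.3 and 578.0 in vehicle and 456.0, 423.5 and 418.7 in trametinib hearts. Ndufaf6 (2310030N02Rik) stood at 415.9, 402.2 and 403.0 in vehicle and 252.0, 268.4 and 265.0 in trametinib hearts. Ndufaf7 (2410091C18Rik), an arginine methyltransferase in human cells, stood at 706.4, 705.7 and 736.8 in vehicle and 535.9, 521.6 and 533.6 in trametinib hearts. For these 3 the arms did not overlap, and the log2 fold changes were -0.44 ± 0.076, -0.64 ± 0.081 and -0.43 ± 0.065 (SE), with adjusted p of 0.00299, 0.000863 and 0.00166. Ndufaf8 (1810043H04Rik), the partner of Ndufaf5 in human cells, stood at 761.5, 750.4 and 633.6 in vehicle and 347.9, 382.5 and 334.6 in trametinib hearts. Its fall of 50.4% was the largest of the 8 factors, with a log2 fold change of -1.01 ± 0.1 (SE) and adjusted p = 0.000413. By current name 7 of 8 assembly factors were lower, with a median of -0.44. After correction only Ndufaf7 of the 8 was lower by mean length (-0.29, adjusted p = 0.0407), and Ndufaf3 and Ndufaf8 by principal length. The share of all tested genes that were lower was 22.8% as deposited, 12.5% after correction by mean length and 12.7% by principal length. The corrected count by mean length was thus no higher than the share of all genes.

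The structural median was 0.37 log2 units below that of the 4 assembly factors (difference -0.37, or -0.33 with all 8). In single hearts the structural median minus the assembly median was 0.002, 0.10 and -0.08 in vehicle replicates 1, 2 and 3, and -0.47, -0.25 and -0.42 in trametinib replicates 1, 2 and 3. The lowest vehicle value lay above the highest trametinib value. After correction the difference was -0.18 with 4 factors. With all 8 the classes came together, with corrected medians of -0.228 for structural genes and -0.233 for the factors (-0.271 and -0.178 by principal length). With so few factors, and with transcript lengths that differ between the classes, this is a description of these genes and no test was made of it.

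A list of 13 other assembly genes of complex I, without the prefix, had 10 tested members, of which 8 were lower, with a median of -0.52. Of all tested genes 22.8% were lower. Nubpl, which delivers iron-sulfur clusters to complex I, averaged 268.4 ± 9.99 in vehicle and 128.7 ± 14.6 in trametinib hearts (SD, n = 3), a log2 fold change of -1.06, and was also lower after correction (-1.22, adjusted p = 0.000963). Lyrm2, Foxred1 and Acad9 were also lower, at -0.86, -0.57 and -0.54. Corrected values were -0.10 for Lyrm2 (not past the threshold), -0.39 for Foxred1 and -0.52 for Acad9. Ecsit, a partner of Ndufaf1, stood at 2061, 2035 and 2095 in the vehicle hearts and 2060, 2095 and 2070 in the trametinib hearts. The arms overlapped, and the log2 fold change was 0.01 ± 0.049 (adjusted p = 0.908), while the corrected value was higher (0.24, adjusted p = 0.022). The named genes of the early membrane-arm group thus split, with Ndufaf1, Acad9 and Tmem126b (-0.50, adjusted p = 0.0063) lower and Ecsit level in the uncorrected values. Tmem186, also on the list of other assembly genes, was likewise not past the threshold (-0.045, adjusted p = 0.661), and its arms overlapped. In the whole list 6 were lower and 1 higher after correction, where 12.5% of tested genes were lower and 15.4% higher.

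Other respiratory chain complexes serve as a comparison. All 4 genes of complex II, 9 of complex III, 13 of complex IV and 16 of complex V were lower, with medians of -0.58, -0.78, -0.85 and -0.95. The structural median of -0.77 lay within that range. Of all tested genes 22.8% were lower and 21.6% higher, and of the shortest 20% of them 56.3% were lower. The call of Sdha (-0.19, adjusted p = 0.0271) was the weakest in complex II: it held in 10 of 18 alternatives and was lost without vehicle replicate 1 or 2 or trametinib replicate 1 or 3 (highest adjusted p = 0.102), under median-of-ratios scaling, with no filter and after the correction by mean length. In complex V 15 of 16 genes were lower under quantile normalization. After correction 2, 3, 6 and 11 genes of complexes II to V were lower, with medians of -0.30, -0.16, -0.20 and -0.33. Of all tested genes 12.5% were lower and 15.4% higher after correction. Of 22 assembly genes of complexes II to V, 15 were lower and 3 higher (Cox10, Lrpprc and Ttc19), with a median of -0.41. The higher calls of Lrpprc and Ttc19 held in 10 and 5 of 18 alternatives, and after correction neither was past the threshold (-0.11 and 0.16). Some lower calls were also weak. Those of Cox11 (adjusted p = 0.0499) and Cox15 (adjusted p = 0.0263) held in 5 and 11 of 18 alternatives. With 1 heart left out their highest adjusted p was 0.149 and 0.0974. After correction 8 of the 22 were lower and 1 (Cox10) higher, with a median of -0.16.

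**Figure D4:**
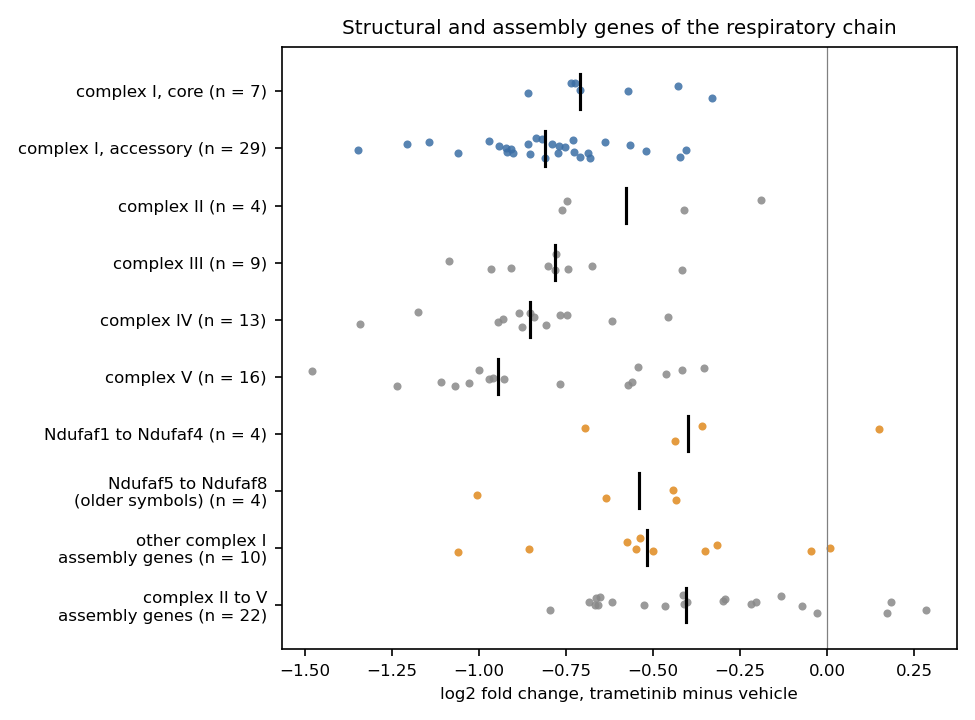
Log2 fold change, trametinib minus vehicle (x axis), for each gene (points) of the structural and assembly lists in rows, with black bars at the list medians. Bars of the structural lists run from -0.58 for complex II to -0.95 for complex V, and those of the assembly lists from -0.54 to -0.40.

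Of 11 listed regulators of respiratory gene expression, 6 were higher and 1 lower, where 21.6% of tested genes were higher and 22.8% lower. Ppargc1b, a coactivator of mitochondrial genes, rose from a mean of 415.9 ± 62.0 in vehicle to 654.7 ± 110.0 in trametinib hearts (SD, n = 3), a log2 fold change of 0.65 with limma's adjusted p = 0.0116. Esrrg, an oestrogen-related receptor, and Yy1 rose by 0.50 (adjusted p = 0.00102) and 0.38 (adjusted p = 0.00156), but neither passed the threshold after correction, at 0.24 and 0.05. Nrf1, Pprc1 and Gabpa were higher by 0.33, 0.39 and 0.19. These 3 calls were less stable to the removal of a heart. Leaving out trametinib replicate 3 gave adjusted p of 0.0669 for Nrf1 and 0.0729 for Pprc1. The call of Gabpa was lost whichever heart was left out (highest adjusted p = 0.13). Over all 18 alternatives, Nrf1, Pprc1 and Gabpa kept their calls in 17, 16 and 5. Ppargc1b, Esrrg and Yy1 kept theirs in 17, 15 and 15. Tfam, which packages and transcribes mitochondrial DNA, was lower (-0.35, adjusted p = 0.00816). After correction 4 of the 11 were higher (Ppargc1b, Nrf1, Pprc1 and Esrra) and 1, Tfam, was lower. Of all tested genes 15.4% were higher and 12.5% lower after correction. Esrra, another oestrogen-related receptor, was not past the threshold as deposited (0.09, adjusted p = 0.251) and was higher after correction (0.51, adjusted p = 0.000891, and 0.26 by principal length), while Pprc1 was not past the threshold by principal length.

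Several marker lists of other cells differed between the arms, where 22.8% of all tested genes were lower and 21.6% higher. Summed cardiomyocyte markers were 3086314 to 3169278 in vehicle and 2847400 to 2985895 in trametinib hearts, with 10 of 15 lower and 4 higher (Ryr2, Ttn, Myh6 and Atp2a2). After the correction by mean length 7 of these 15 were lower and 3 higher, where 12.5% of tested genes were lower and 15.4% higher. The marker counts that follow are uncorrected. Summed erythroid markers were 19815 to 27341 and 54952 to 194159, with 4 of 5 tested higher, and neutrophil markers 168 to 616 and 1654 to 3631, with 7 of 8 tested higher. Fibroblast markers summed to 83595 to 106940 and 57182 to 61666, with 6 of 10 lower and 2 higher (Ddr2 and Pdgfra), macrophage markers to 8362 to 10037 and 6149 to 8168, with 3 of 10 lower, and endothelial markers to 21748 to 25132 and 26525 to 29339, with 4 of 10 higher and 1 lower. Adipocyte markers summed to 14953 to 20433 and 11100 to 12741, with 1 of 6 tested lower. The counts of lower macrophage and adipocyte markers were near the share of all genes. No listed marker present in the table was at 0 in all 6 libraries. The part of these cell types in the falls of complex I transcripts was not tested.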

How the data were processed

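Messenger RNA of 6 whole mouse hearts, 3 per arm, was measured by stranded single-end sequencing on a single run, and RNA was isolated with either of 2 kits, per the labels' protocols. Neither the kit of each heart nor the aligner is given in the sources used here. DESeq2, RSEM, SAMtools, Picard 1.64 and the build mm9 are named with no role, per the submitters' processing notes. The deposited values are a signal per gene, counts that the authors normalized by a method the labels do not state. The step of a library, taken as the worth of a single read, was its most common value above 0. Between 87.5% and 89.4% of low values in a library lay within 0.05 steps of a whole multiple of that step. These were too few to recover whole reads, so no count test was run, and depth was estimated as total over step. Of the columns of per-sample values, 1, under the PBS control heading, had no matching sample among the labels and stayed out of every step. Symbols in 26 rows that had turned into numbers were restored, and 21562 of 21705 rows matched the reference gene table by Entrez identifier. The reference build differs from the authors', and its coordinates are given for printed sequences only.

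Genes with a mean of at least 10 (13581) were fitted on log2(value + 1) by limma 3.58.1 (R 4.3.3) with its trend option. The added 1 understates the change of low genes. P-values were adjusted by Benjamini-Hochberg over all genes tested, with a threshold of 0.05. Length and GC content came from GENCODE M21 and covered all 42 members and 99.5% of tested genes, and the correction subtracted a lowess curve (span 0.3) per library. Tables were made with Python 3.11.15 and pandas 2.3.3. The code was tested on simulated data. Genes given in every heart were all assembly factors, the core subunits, the 5 lowest and 5 highest structural fold changes, Ndufa4, Ndufa4l2 and every member whose call was not shared by all alternatives. One member is counted in the totals and not reported singly here. Of the other lists up to 4 genes with the smallest p were named. Tmem126b, Tmem186, Ecsit, Nrf1, Pprc1, Gabpa, Cox10, Cox11, Cox15, Lrpprc and Ttc19 were named after their values were seen. So were Sdha, Esrra, Ddr2, Pdgfra, Ryr2, Ttn, Atp2a2 and the heart markers. The motif windows shown were also chosen after the matches were seen. The members, lists and rules were chosen with earlier results of these data known. Alternatives covered scaling, filters, pseudocounts, voom, thinning, length and GC content, the replicate number as a block and each heart left out.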

Additional observations from a re-analysis of the deposited data

How the results depend on the processing

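Calls of all 42 Nduf genes were the same under median-of-ratios scaling, quantile normalization, no filter, a mean of at least 30, pseudocounts of 0.5 and 5, voom on estimated reads, thinning, the replicate block and the removal of each heart in turn. Without 1 heart, 4662 to 5571 genes were called in place of 6037, the structural median ranged from -0.835 to -0.73, that of the assembly factors from -0.409 to -0.382 and their difference from -0.431 to -0.328.

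Length and GC content mattered most among the settings tried. The correction by mean transcript gave 3775 called genes, 21 lower Nduf members, 21 lower structural genes and 0 lower assembly factors, with medians of -0.228 and -0.045 and a difference of -0.183. Log2 fold changes turned positive for Ndufa12 (0.102), Ndufa8 (0.089), Ndufaf2 (0.329), Ndufb10 (0.191), Ndufa5 (0.013) and Ndufa6 (0.099). The correction by principal transcript, added after seeing the data, gave 3481 called genes, 23 lower members, 22 lower structural genes and 1 lower assembly factor, with medians of -0.271 and -0.054 and a difference of -0.217. It turned positive Ndufa8 (0.088), Ndufaf2 (0.118), Ndufa4l2 (0.029), Ndufb10 (0.076) and Ndufc1 (0.022). The cause of the length trend was not tested. Counting Ndufaf5 to Ndufaf8, also added after seeing the data, gave 7 lower assembly factors and a median of -0.441.

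The replicate numbers were not shown to pair the hearts: deviations of same-numbered hearts from their arm means correlated at 0.238, 0.019 and 0.5, and vehicle replicates 1 and 2 correlated best with another number (0.285 and 0.172). The replicate block gave 5762 called genes and left the calls of 38 structural genes and 3 assembly factors as they were. With the block and the correction by mean transcript together, 3787 genes were called in either direction. Lower were 21 members, 21 structural genes and 0 assembly factors. In this balanced layout the block cannot change a fold change, only its p-value. The medians of -0.228 and -0.045 and the difference of -0.183 are therefore those without the block. So are the positive values 0.102, 0.089, 0.329, 0.191, 0.013 and 0.099 of the same 6 genes. With 3 hearts per arm and depth that goes with the arm, small differences between members are not resolved.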
